A study of Mus musculus with 2 samples.

Results

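The Schlafen genes of the mouse, Slfn1, Slfn2, Slfn3, Slfn4, Slfn5, Slfn8, Slfn9 and Slfn10, were described in back skin injected with the growth factor FGF18 or with PBS. They were found as the array features that carry 1 of these symbols or an older synonym: 9 probes for 8 genes, of 41165 probes for 27576 genes on the array. The family was picked for its difference between these same arrays, so the signals and ratios of its members are a description of the 2 hybridisations and carry no test.

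FGF18-injected skin came from male C3H/HeN mice aged 61 days that were given 1 µg FGF18 under the back skin on day 4 of a hair growth phase (anagen) started by depilation. PBS-injected skin came from mice of the same strain, sex, age and depilation schedule that were given PBS on the same day. Full-thickness dorsal skin was taken 24 h after the injection, 5 days after depilation, and poly(A) RNA was labelled with Cy3 and hybridised to 1 single-colour Agilent array per group, to find genes that respond to local FGF18 during anagen. The labels name 3 mice without saying whether that is per group, the series description has the RNA pooled by group where the protocol has mice extracted separately, and the title of the PBS sample says telogen where its source name says anagen.

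Schlafen proteins are a mammalian family found first through genes that change as T cells develop, and they share an N-terminal domain related to tRNA- and rRNA-cutting enzymes. Mouse members fall into short forms (Slfn1 and Slfn2), intermediate forms (Slfn3 and Slfn4) and long forms with an added helicase-like part (Slfn5, Slfn8 and Slfn9). Slfn10 is grouped here with the long forms, although RefSeq now names it Slfn10-ps and does not class it as protein-coding. Many are targets of type I interferon, which acts through its receptor and JAK kinases, and mouse Slfn2 is needed for T cells and monocytes to stay quiescent.

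The upstream sequences of the members are shown here for 2 sets of letters: a run found in the 4 short and intermediate members, and an interferon motif found in the matched long members. Promoter windows of 250 bases before to 50 bases after the transcription start came from RefSeq, build GRCm38.p6, whose strain is not C3H/HeN. Of the 8 genes, 7 were matched, with 8 windows since Slfn8 has more than 1 start; Slfn10 is named only. The 100 bases just before the start are given 5′ to 3′ on the gene's own strand for Slfn1 (chr11:83116720-83116819, plus strand), Slfn2 (chr11:83065012-83065111, plus strand), Slfn3 (chr11:83191230-83191329, plus strand) and Slfn4 (chr11:83175086-83175185, plus strand), with the shared run ACTTCCTGG in capitals. It holds TTCC, the core letters bound by ETS factors.
Slfn1: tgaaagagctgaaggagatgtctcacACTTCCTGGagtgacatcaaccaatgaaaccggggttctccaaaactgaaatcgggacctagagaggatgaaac
Slfn2: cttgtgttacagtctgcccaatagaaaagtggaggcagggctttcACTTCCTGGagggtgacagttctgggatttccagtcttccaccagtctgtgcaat
Slfn3: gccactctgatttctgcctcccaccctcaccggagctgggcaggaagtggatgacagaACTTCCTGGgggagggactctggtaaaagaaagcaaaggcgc
Slfn4: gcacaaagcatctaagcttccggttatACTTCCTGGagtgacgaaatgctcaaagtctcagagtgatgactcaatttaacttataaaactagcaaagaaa

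The run ACTTCCTGG began 74 bases before the start in Slfn1, 55 in Slfn2, 42 in Slfn3 and 73 in Slfn4. It was chosen after these windows had been read, and 277 of all 32851 promoter windows, 0.843%, hold it on either strand. Among these genes, Slfn1 and Slfn4 shared the longest stretch around it, 15 bases.

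The long members carry another set of letters. The 100 bases just before the start are given for Slfn8 (chr11:83020811-83020910, minus strand) and Slfn9 (chr11:82991831-82991930, minus strand), and the next 100 bases upstream for Slfn5 (chr11:82951902-82952001, plus strand), which holds its match. Capitals mark the interferon-stimulated response element, the sequence through which type I interferon acts on many of its targets, searched on both strands as a core and as a longer form. The core was GAAA and GAAA parted by any 2 bases, and the longer form was the core followed by CT. In Slfn8 and Slfn9 the longer form lies on the other strand, so that AGTTTCGTTTTC is its reverse complement.
Slfn8: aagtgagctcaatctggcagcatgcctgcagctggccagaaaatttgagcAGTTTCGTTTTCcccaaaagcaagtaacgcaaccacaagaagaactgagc
Slfn9: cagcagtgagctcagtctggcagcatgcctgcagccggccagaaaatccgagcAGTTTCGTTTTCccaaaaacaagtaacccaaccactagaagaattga
Slfn5: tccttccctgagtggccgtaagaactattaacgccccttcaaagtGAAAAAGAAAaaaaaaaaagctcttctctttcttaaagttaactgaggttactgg

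The core was found in 3 of the 7 matched genes, Slfn5, Slfn8 and Slfn9, and in 3.44% of all promoter windows. The longer form was found in Slfn8 and Slfn9 and in 0.271% of all windows. The gamma-activated site TTCNNNGAA, known from genes that answer type II interferon, was in 0 of the 7 and in 8.30% of all windows, and the AP-1 site TGANTCA was in Slfn4 alone of the 7 and in 7.81% of all windows. A match is only a match of letters, and its absence says only that these letters are not in this window. Slfn8 and Slfn9 were identical at 206 of 242 aligned upstream bases, 85.1%, while the other 20 pairs of members ranged from 55.6% to 67.6%. Over the whole upstream window, Slfn2 was 67.6% identical to Slfn3, 64.2% to Slfn8 and 55.6% to Slfn4. Unrelated promoters were not aligned, so nothing about the protein forms is read from these values.

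**Figure D1:**
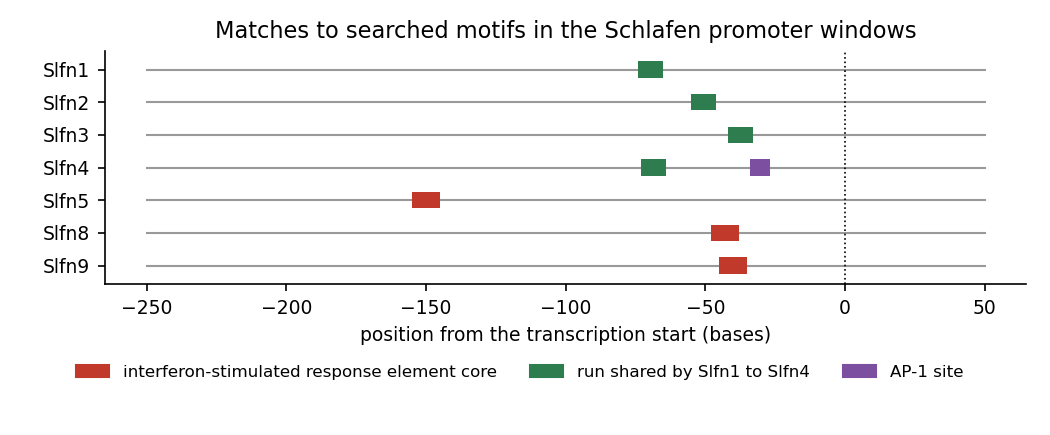
Matches to 3 motifs in the promoter windows of 7 Schlafen genes, by distance in bases from the transcription start at 0 (dotted line). Boxes mark the interferon-stimulated response element core (red), the run shared by Slfn1 to Slfn4 (green) and the AP-1 site (purple); for Slfn8 the window of the printed sequence is drawn. The red boxes lie in Slfn5, Slfn8 and Slfn9 and the green boxes in Slfn1, Slfn2, Slfn3 and Slfn4.

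On the arrays, a spot was taken as measured where the scanning software called it well above background. The FGF18 array had 62.4% such probe spots and the PBS array 61.5%, and saturation affected 0 spots. Each array was scaled to the 75th percentile of its processed signal, 1020 for FGF18 and 899 for PBS. A value on both arrays was available for 16610 genes, and 256 of them were higher by 2-fold or more with FGF18 and 164 lower by as much, and the median log2 ratio was -0.07. The higher genes made up 61.0% of these. That share was 71.9% with scaling to the median, 72.7% in the deposited value table, 78.5% with no scaling and 99.0% with scaling to spike-in probes. Lower genes outnumbered higher ones, with a share of 46.8% with no filter on dim probes and of 44.1% at a threshold of 1.5-fold. The median of all genes was 0.03 on the log2 scale with scaling to the median, 0.04 in the value table, 0.11 with no scaling and 0.74 with spike-in scaling. With 1 array per group there is no replicate check, and the precision is limited by having so few arrays.

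All 5 Schlafen genes measured on both arrays were higher with FGF18, by 2.005-fold to 11.3-fold, with a median log2 ratio of 2.51 (5.71-fold). These were 5 of 8, and of all genes with a probe 60.2% were measured on both arrays. The other 3, Slfn5, Slfn8 and Slfn9, were measured on the FGF18 array alone. Each of the 5 was at least 2-fold higher, as were 1.54% of all genes measured on both arrays, and 4 of them at least 5-fold higher, against 0.271% of all genes. None was lower, against 0.987% of all genes at least 2-fold lower. Since the family was chosen from this contrast, nothing is read from these shares. In full-thickness skin, a change in the number of cells of a type and a change of RNA per cell cannot be told apart. Processed signals are given below with the scanner software's own error for the spot, and a ratio with the error that follows from both spots; neither covers differences between mice.

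**Figure D2:**
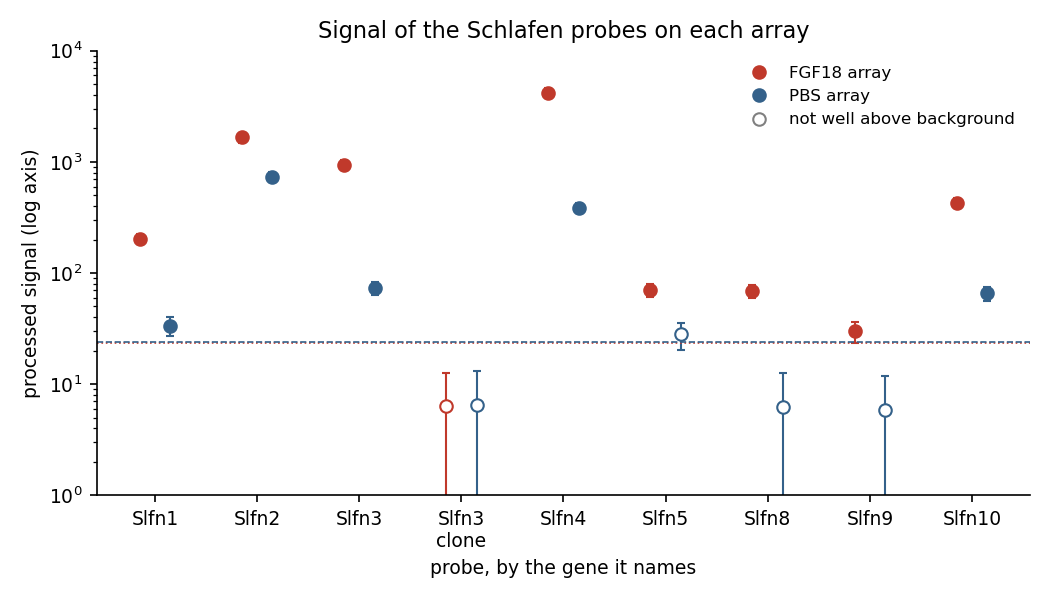
Processed signal of the 9 Schlafen probes on the FGF18 array (red) and the PBS array (blue), on a log axis; bars are the scanner software's error of 1 spot, and bars that reach the axis run below 1. Open circles are not well above background, and the dashed lines, which almost coincide, are the lowest well-above-background signals, 23.3 for FGF18 and 24.2 for PBS. The 5 probes filled on both arrays are higher with FGF18.

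Among the short forms, the Slfn1 probe had a processed signal of 202 ± 20.9 in FGF18-injected skin and 33.7 ± 6.39 in PBS-injected skin. After scaling this was a log2 ratio of 2.40 ± 0.31, or 5.28-fold, and 43 of the genes measured on both arrays had a higher ratio. The FGF18 array was the higher, and the PBS signal stood little above the lowest signal called well above background there, 24.2. Slfn1 is the founding member of the family and slows T-cell growth when it is expressed in mouse thymocytes. With another background correction (normexp, with an offset of 50 added to the signals of both arrays) the value was 2.34-fold. This offset by itself draws ratios toward no difference, most of all at dim spots. The Slfn1 probe is reported at chr11:82938349-82938408, plus strand, in a genome build that the files do not name, as for every probe position here.

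Slfn2, the member whose loss breaks the quiescence of mouse T cells and monocytes, had a signal of 1660 ± 166 with FGF18 and 730 ± 73.3 with PBS. The log2 ratio was 1.00 ± 0.20, or 2.005-fold, with 254 genes higher. It was the smallest ratio among the 5 and lay at the 2-fold mark, so that its error reaches to both sides of the mark. The probe is at chr11:82886484-82886543, plus strand. With normexp the value was 1.86-fold.

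Among the intermediate forms, Slfn3, studied mostly in the differentiation of gut epithelium in rodents, had a signal of 941 ± 94.3 with FGF18 and 73.4 ± 9.56 with PBS. This log2 ratio of 3.50 ± 0.24, or 11.3-fold, was the largest of the family in this setting, with 5 genes on the array higher, but Slfn4 was the larger with normexp and with no filter on dim probes. The probe targets the RefSeq transcript and is at chr11:83031124-83031183, plus strand. A further Slfn3 probe, made from a cDNA clone and placed at chr11:83033757-83033816 on the plus strand, read 6.31 with FGF18 and 6.55 with PBS, not well above background on either array. The probes for this gene therefore disagree, and the Slfn3 ratio rests on 1 of its 2 probes. With no filter on dim probes, the mean over both was 1.63 on the log2 scale, and with normexp the first probe alone gave 5.89-fold.

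Slfn4, which macrophages and other myeloid cells of the mouse raise under type I interferon and bacterial ligands, had a signal of 4180 ± 418 with FGF18 and 387 ± 39.3 with PBS. The log2 ratio was 3.25 ± 0.21, or 9.52-fold, with 10 genes higher on the array. Its signal stood at percentile 90.7 of all probes with FGF18 and at percentile 66.2 with PBS. The Slfn4 probe is at chr11:83005667-83005726, plus strand. Normexp moved it the least of the family's high ratios, to 7.96-fold.

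Of the long forms, Slfn5, Slfn8 and Slfn9 gave signals near background. The Slfn5 probe (chr11:82778342-82778401, plus strand) read 70.3 ± 9.89 with FGF18 and 28.1 ± 7.66 with PBS, and the PBS value was not well above background. Human SLFN5 is known as an interferon-induced nuclear protein. For a gene not well above background on 1 array, the measured signal was set against the higher of its own signal and the lowest well-above-background signal on the other array, which gives a bound. By this rule Slfn5 was at least 2.21-fold higher with FGF18. Its own PBS signal was above the floor, so this is the plain ratio of its 2 signals and firm only as far as that dim PBS signal is.

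Slfn8, a large member linked to T-cell proliferation in mice, read 69.5 ± 9.26 with FGF18 and 6.28 ± 6.25 with PBS at chr11:82819576-82819635 on the minus strand. It was at least 2.53-fold higher with FGF18. Slfn9, its near neighbour, read 29.8 ± 6.42 with FGF18 and 5.88 ± 5.86 with PBS at chr11:82797190-82797249 on the minus strand. For Slfn9 the bound was only 1.09-fold, since the FGF18 signal itself was close to the floor of 23.3; the mean of the spot's pixels was 103 over a local background of 59 on the FGF18 array, and 73.0 over 62 on the PBS array. Among all genes measured on the FGF18 array alone, 20.8% had a bound of at least 2-fold, and 2.21% of all genes with a probe were measured on that array alone. With normexp the 3 long forms measured on 1 array were at 1.13-fold for Slfn5, 1.75-fold for Slfn8 and 1.24-fold for Slfn9, each higher with FGF18.

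The probe named Slfn10, now Slfn10-ps in RefSeq, had a signal of 426 ± 43.0 with FGF18 and 65.8 ± 9.19 with PBS. The log2 ratio was 2.51 ± 0.25, or 5.71-fold, with 40 genes higher, and this value is also the median of the 5 genes measured on both arrays. Besides its own transcript, the array's annotation lists transcripts of Slfn8 and Slfn9 for this probe (chr11:82844746-82844805, minus strand), and a Slfn8 transcript for the Slfn9 probe. RNA of these long forms can therefore bind the same probe, and which of them gave the Slfn10 signal cannot be told apart. With normexp the value was 3.05-fold.

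Set side by side, the ratios fell into an order with gaps larger than the scanner error and gaps within it. Slfn3 exceeded Slfn4 by 0.25 ± 0.31 on the log2 scale, a difference within the scanner error, and Slfn1 minus Slfn10 was -0.11 ± 0.40, also within it. Slfn4 exceeded Slfn10 by 0.74 ± 0.32, and Slfn1 exceeded Slfn2 by 1.40 ± 0.37. In this setting the intermediate forms Slfn3 and Slfn4 stood at the top, Slfn10 and Slfn1 in the middle and Slfn2 at the bottom. The order depended on the setting: with normexp the log2 ratios were 2.99 for Slfn4, 2.56 for Slfn3, 1.61 for Slfn10, 1.23 for Slfn1 and 0.90 for Slfn2, so that Slfn1 and Slfn2 came close together, and with no filter Slfn3, at 1.63, lay below Slfn10 and Slfn1. The array prints 175 probes as 10 spots each, which gave a technical SD of the log2 ratio of 1 spot. It was read at the mean of each Schlafen probe's scaled log2 signals on both arrays, not at the dimmer PBS signal. So read, it was 0.16 for Slfn1, 0.095 for Slfn10, 0.078 for Slfn3, 0.042 for Slfn2 and 0.040 for Slfn4. These SDs are smaller than the scanner errors, and the gap of 0.25 between Slfn3 and Slfn4 was larger than either gene's SD. An SD of the difference was not computed, so no order of Slfn3 and Slfn4 is read from this. They hold the spread between spots only and not differences between mice.

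**Figure D3:**
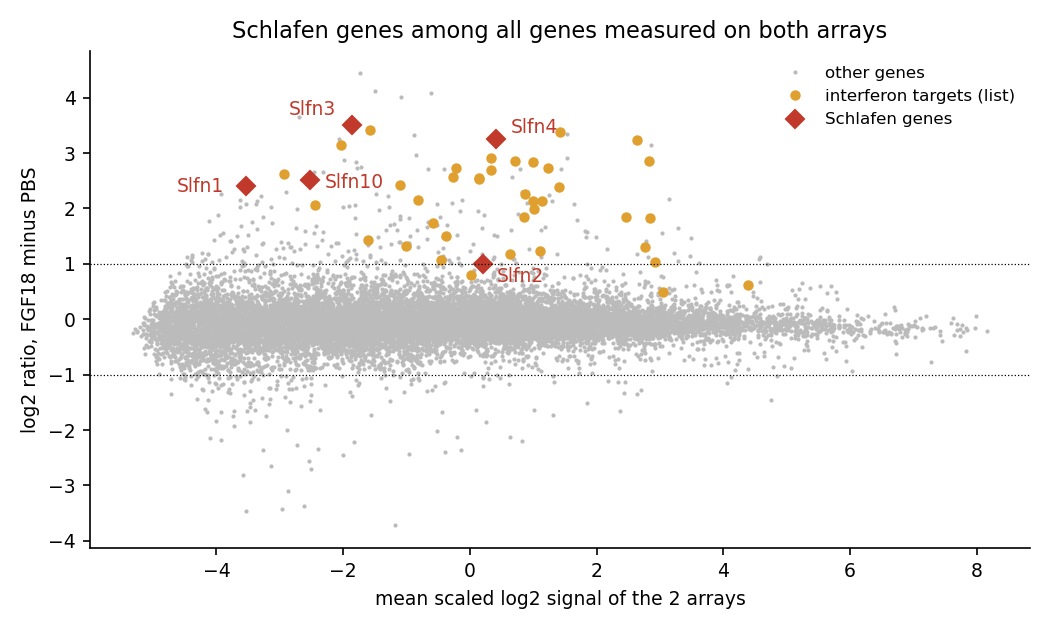
Log2 ratio of FGF18 over PBS against the mean scaled log2 signal for the 16610 genes measured on both arrays (grey), the interferon target list (orange) and 5 Schlafen genes (red diamonds); dotted lines mark 2-fold. Slfn3 and Slfn4 stand at 3.50 and 3.25 and Slfn2 at 1.00.

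The genes stand together on chromosome 11, in the RefSeq order Slfn5, Slfn9, Slfn8, Slfn10-ps, Slfn2, Slfn1, Slfn4, Slfn3. Slfn14, which follows, had no probe matched to it on the array. The non-coding RNA AI662270, next to Slfn3, read 257 with FGF18 and 140 with PBS, a log2 ratio of 0.69. On each side of the cluster, the nearest 5 protein-coding genes measured on either array were taken. Genes with no probe, or not well above background on either array, were passed over. Of these 10 genes, 9 were measured on both arrays and 0 of the 9 passed 2-fold in either direction. Their log2 ratios ran from -0.42 (Mmp28) to 0.42 (Unc45b), with a median of -0.05. The remaining one, Rasl10b, was measured on the PBS array alone, with 21.2 in FGF18-injected skin and 33.1 in PBS-injected skin, at least 1.61-fold lower. A predicted transcript annotated as similar to schlafen 3, LOC435271, whose probe lies on the same chromosome at chr11:83076585-83076644 in the build of the array files, was also past 2-fold, with 67.7 with FGF18 and 27.5 with PBS (2.17-fold).

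**Figure D4:**
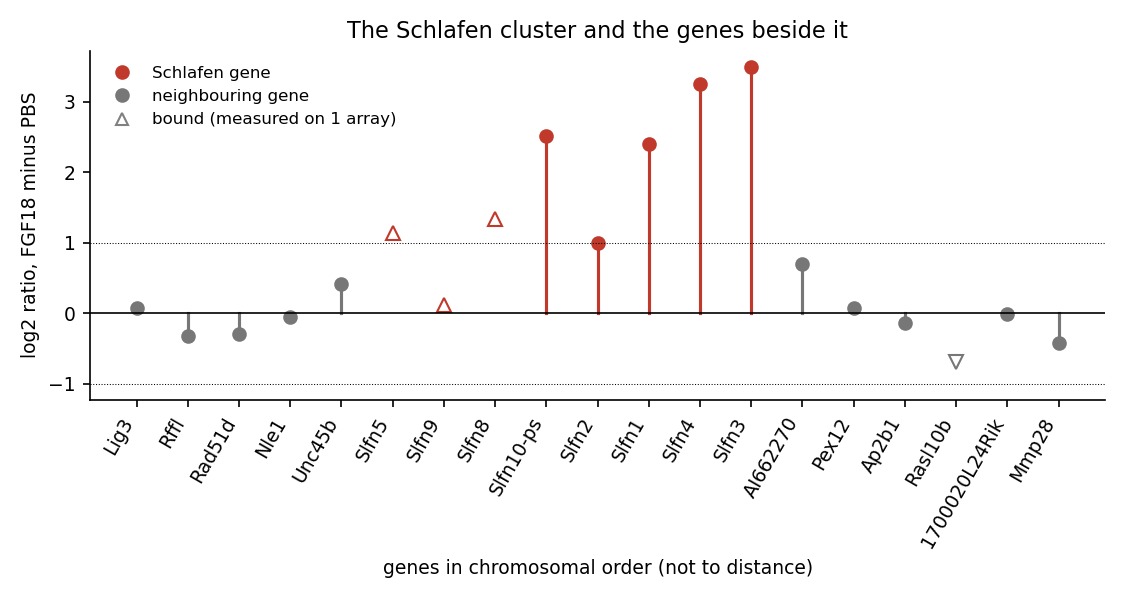
Log2 ratio of FGF18 over PBS for the Schlafen genes (red) and the neighbouring genes (grey) in their order along chromosome 11, not to distance. Filled points were measured on both arrays, and open triangles are bounds for genes measured on 1 array; Slfn10-ps, Slfn2, Slfn1, Slfn4 and Slfn3 reach 1.00 or more and the neighbours lie between -0.42 and 0.69, with Rasl10b as a bound.

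Because the family is known to answer interferon, the interferon pathway was read from lists by role. Of 15 interferon ligand genes with a probe, 6 were measured on both arrays, 0 of them past 2-fold, with a median log2 ratio of -0.40. The signals of the 6 were low, from 42.8 (Ifna13, FGF18) to 144 (Ifnz, PBS). Another 7 ligand genes were not well above background on either array. Ifnb1 and Ifng, the type II interferon, were measured on the FGF18 array alone. Ifnb1 had 75.9 with FGF18 and 6.47 with PBS, at least 2.77-fold higher by the bound rule. Ifng had 68.0 with FGF18 and 17.7 with PBS, at least 2.37-fold higher by that rule. These FGF18 signals were close to that of Slfn8 (69.5), whose value with normexp, 1.75-fold, was below its bound of 2.53-fold. The normexp offset of 50 by itself draws ratios at such dim signals toward no difference. How far the ligand bounds hold with normexp was not tested. None of the 6 receptor genes passed 2-fold (median 0.24). Among the signalling genes, Usp18, a feedback inhibitor of type I interferon signalling, was at 2.14 on the log2 scale, while Irf9 stood at 0.76 and Stat2 at 0.62.

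Both arrays gave a value for 38 interferon target genes, and with FGF18 35 of them were at least 2-fold higher and 0 were 2-fold lower, against 1.54% of all genes higher. Their median log2 ratio was 2.15, beside 2.51 for the 5 Schlafen genes and -0.07 for all genes. Rsad2 (3.41), an antiviral enzyme, and Ifit3 (3.38), an antiviral protein of the IFIT family, were the highest, below Slfn3 and above Slfn4. The lowest were Psmb8 (0.49) and Ifi27 (0.62), both below Slfn2. The ratios of 4 Schlafen genes lay within this list's range, and that of Slfn3 just above it. The list was drawn up with earlier results of these arrays known, so it is no independent evidence of its direction.

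Lists on functions ascribed to the family were read against the shares over all genes, 1.54% past 2-fold upward and 0.987% downward. In the list on lymphocyte quiescence, the state that Slfn2 maintains, 0 of 15 genes passed 2-fold, with a median log2 ratio of -0.07. Klf4 was the lowest at -0.68 and Tsc2 the highest at 0.08. The list was read in full-thickness skin, where the cells that gave these signals are not known. Klf4 alone read 23400 with FGF18, while the T cell marker list summed to 3555. Nothing about quiescence of lymphocytes is therefore read from it. In the list of tRNA-cutting and translation-blocking enzymes, 2 of 13 were at least 2-fold higher, the interferon targets Ifit1 (2.74) and Eif2ak2 (1.06).

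Because T cells, macrophages and neutrophils are the cells in which Schlafen genes were mostly studied, markers of leukocytes were read on the same arrays, beside the same shares over all genes, 1.54% higher and 0.987% lower. Sums are of processed signals, with the PBS sum scaled to the FGF18 array's 75th percentile as the ratios are. Of the NK cell and cytotoxic markers, 5 of 10 were measured on both arrays and 4 on the FGF18 array alone, and 3 of the 5 were at least 2-fold higher, with Gzmb at 4.44 and Prf1 at 1.74; the summed signal of the list was 4000.2 with FGF18 and 1045 with PBS, and Eomes was not well above background on either array. Of 12 T cell markers, 0 passed 2-fold (median -0.13); the sums were 3555 with FGF18 and 3580.2 with PBS, and Cd8a and Cd28 were not well above background. Macrophage and monocyte markers had 1 of 15 past 2-fold, Fcgr1 at 2.72, with a median of -0.19 and sums of 67696 with FGF18 and 74255 with PBS; Lyz2 made up 37102 of the FGF18 sum.

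Neutrophil markers had 1 of 7 past 2-fold, S100a8 at 1.82, with a median of -0.27. Their sums were 3622 with FGF18 and 3220.4 with PBS, of which S100a8 gave 986 with FGF18 and 246 unscaled with PBS. S100a9 gave more, 1640 with FGF18 and 1830 unscaled with PBS, at a log2 ratio of -0.34. Elane, Ngp, Ltf and Retnlg were not well above background on either array. Of the B cell markers, 0 of 3 passed 2-fold, with sums of 7104 with FGF18 and 8094 with PBS, and Ms4a1, Cd79a and Pax5 were not well above background. Pan-leukocyte markers summed to 20050 with FGF18 and 16045 with PBS, and 1 of 8, Cd53, was past 2-fold at 1.07. The part of these cell markers in the Schlafen ratios was not tested. Skin itself was present as labelled: all 10 keratinocyte markers were measured on both arrays, as were all 14 of the hair shaft and root sheath.

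**Figure D5:**
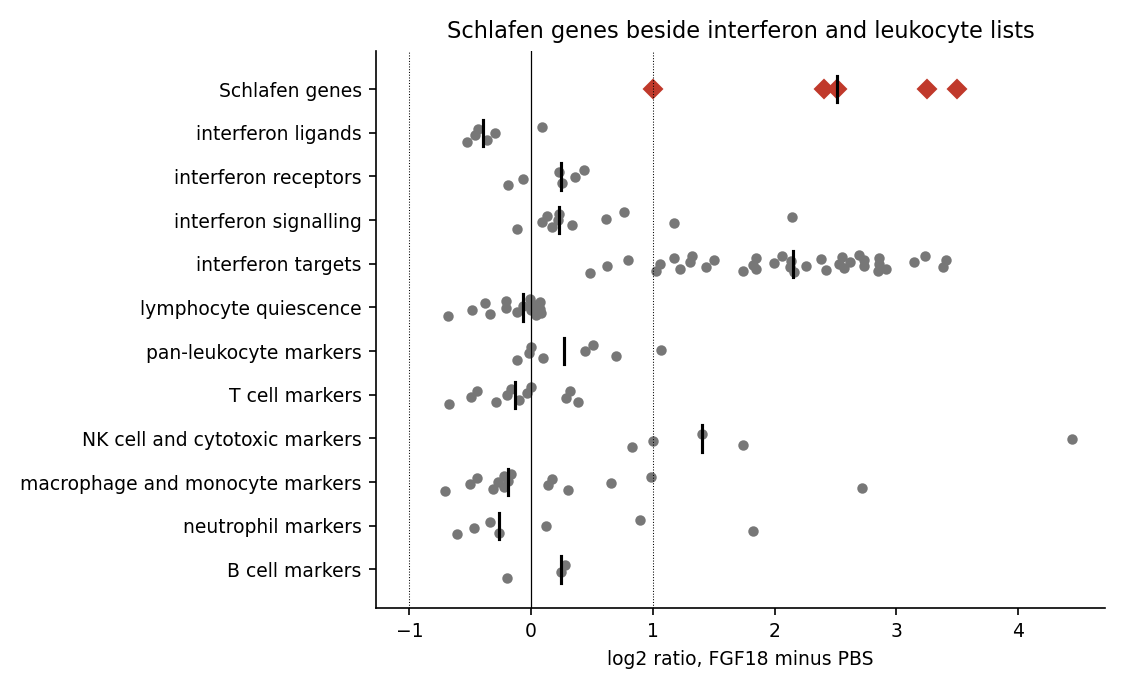
Log2 ratio of FGF18 over PBS for the Schlafen genes (red diamonds) and the members of 11 gene lists that were measured on both arrays (grey); vertical black bars are medians and dotted lines mark 2-fold. The interferon targets have a median of 2.15 and the NK cell and cytotoxic markers 1.41, while the interferon ligands stand at -0.40 and the T cell markers at -0.13.

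For each of the 5 members, the genes with the nearest pair of signals were found by the distance between the scaled log2 signals on the 2 arrays. Signals of unlike probes also hold each probe's binding strength, so nearness describes the array readings and not equal RNA levels. Over 2 arrays, Slfn2 had Il10ra as its nearest gene, with 1640 for FGF18 and 719 for PBS, at a distance of 0.028. Slfn4 lay nearest to Cxcl10 (0.26), and Slfn3 to Ccl4 (0.34) and Mx1 (0.35). Slfn10 lay nearest to Sirpb1a (0.12), and Slfn1 to Myh3 (0.31) and Slamf7 (0.32).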

How the data were processed

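Poly(A) RNA was measured on 2 single-colour arrays, 1 for FGF18-injected and 1 for PBS-injected skin; both lay on 1 slide in 1 scan. Per the file headers, Feature Extraction 9.5.3.1 (Agilent) made the scanner files with the protocol GE1-v5_95_Feb07. The deposited intensity values are the mean over a spot's pixels, a local background, and the processed signal that the software derives by subtracting background and detrending. Per the file headers, a surrogate stands in for processed signals close to background. The deposited value table holds a ratio of the signal to a per-array constant, found by setting it against the scanner values; the sources used here do not give how the authors made it.

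Control spots and 151 outlier spots were left out, log2 processed signal minus each array's 75th percentile was taken, and probes were kept where well above background on both arrays. Measured probes of a gene were averaged. Probes were named through the RefSeq tables by accession (23368), symbol (6732) or synonym (2907), and 8158 kept their file name. A gene measured on 1 array got a bound. With 1 array a group no p-value exists. Members and lists were chosen with earlier results of these data known. Named genes were every member, every gene inside the cluster, 5 measured protein-coding neighbours a side, and the 2 highest and 2 lowest of each list. All interferon ligand, receptor and signalling genes and the 3 nearest genes by distance were named too. Some genes that this rule names are not reported here. Python 3.11.15, pandas 2.3.3, Biopython 1.88 and limma 3.58.1 (loess, quantile, and normexp with an offset of 50) were used. The scripts were tested on simulated data. Alternatives were 12 settings listed first and 2 added after the data were seen.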

Additional observations from a re-analysis of the deposited data

Results flagged for a closer look

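The probe for LOC435271, a predicted transcript annotated as similar to schlafen 3, was well above background on both arrays. It was counted among all genes but not among the 8 genes described. It read 67.7 in FGF18-injected skin and 27.5 in PBS-injected skin, a log2 ratio of 1.12 (2.17-fold), at chr11:83076585-83076644 in the build of the array files. Its probe and those of Slfn3 were not compared base by base, so whether they share a target was not tested.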

How the results depend on the processing

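No paired analysis was possible because each group has 1 array. Of 65 summary values under the alternatives, 48 stayed near the value reported and 17 moved. Higher genes outnumbered lower ones in most settings, but not at 1.5-fold or with no filter. The number of Schlafen genes at least 2-fold higher was 5; it was 8 where 1 array well above background sufficed and 8 with no filter, and 2 of 2 with a signal over 100 on both arrays, which left fewer genes. The 3 genes added to make 8 have PBS values not well above background, so their folds are not measured, and the bound for Slfn9 is 1.09-fold. Genes at least 2-fold higher, 256, became 167 with normexp, 562 with 1 array sufficing, 790 with no filter, 630 at 1.5-fold, 117 at 3-fold and 2677 with scaling to spike-in probes. Genes at least 2-fold lower, 164, became 92 with no scaling, 68 with normexp, 437 with 1 array sufficing, 897 with no filter, 70 over 100, 800 at 1.5-fold, 43 at 3-fold and 28 with spike-in scaling. The interferon targets past the threshold, 35, ranged from 27 to 38. The causes were not tested beyond the thresholds and filters themselves and the offset in normexp, which draws ratios of dim spots toward no difference. All 5 Schlafen ratios stayed above 0 in 9 of 9 alternatives that gave them, and only Slfn2 fell under 2-fold, with normexp (1.86-fold). Most of these alternatives could hardly change a sign, so the count is no check of direction. Median, spike-in and no scaling and the value table shift every ratio by nearly the same amount. For a gene with 1 probe, the brightest-probe and no-filter settings return the main value. Spike-in scaling raised every ratio by 0.81 on the log2 scale, to 3.52-fold for Slfn2 and 19.9-fold for Slfn3. That scaling, and the single-gene ratios with no filter, were chosen after seeing the data. Signals near background limit Slfn1, Slfn5, Slfn8 and Slfn9 most.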

Other observations

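Of the other genes with a Schlafen name on the array, Slfnl1, on chromosome 4, read 5.21 with FGF18 and 5.39 with PBS, and 1700003F17Rik, now Slfn5os, read 4.81 with FGF18 and 4.97 with PBS; neither was well above background on either array. Among the structural genes of skin, Flg and Ivl were the 2 of 10 keratinocyte markers at least 2-fold lower with FGF18 (median of the list -0.30), and 5 of 14 hair shaft and root sheath markers were at least 2-fold lower (median -0.66). Fibroblast markers had a median log2 ratio of -0.21, endothelial markers 0.05, muscle markers 0.12, adipocyte markers 0.11, mast cell markers -0.13, dendritic and Langerhans cell markers -0.11, and erythroid and platelet markers -0.07, with 0 past 2-fold in these 7 lists.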
